A study of Oryza sativa with 14 samples.

Results

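NAC proteins are plant transcription factors named after NAM, ATAF and CUC, and 102 of the 38978 genes in the RPKM table were taken as candidates for this family from their symbols and descriptions. A gene entered where its description named the NAC or no apical meristem (NAM) domain, or where its symbol was a numbered NAC name, and subunits of the nascent polypeptide-associated complex were left out. Of these, 101 are NAC genes. The other gene was APX8, a thylakoid ascorbate peroxidase that entered only because its description ends in a cut-off word for salt, and it is kept out of every count of NAC genes. Os02g0214500 carries the symbol tms5 in the table together with a NAM domain description, and it is named here by its locus identifier. Genes with the symbols OsCUC3, OsSWN6 and OsSWN7 fell outside the rule and were not counted.

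NAC proteins share an N-terminal domain that binds DNA, and their C-terminal regions differ and activate or repress transcription. Some members respond to drought, salt and abscisic acid, others switch on secondary wall synthesis in vessels and fibres, set organ boundaries, promote or delay leaf senescence, or sit in membranes until they are released. The microRNA miR164 cuts the transcripts of a subset, several of which carry the symbol OMTN in rice.

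The RNA came from seedlings of rice (Oryza sativa), a cereal, kept hydroponically in Yoshida solution under days of 10 h light and 14 h dark. The line osnat10, named after N-acetyltransferase 10, an enzyme that acetylates cytidine in RNA, was compared with wild type (WT), labelled as the cultivar Kitaake, with 3 RNA-seq libraries of biological replicates in each. The sources used here give no allele for osnat10, no number of lines, no cultivar background for osnat10 and no plant age. The labels also list 8 libraries of RNA pulled down with an antibody against acetylated cytidine or of matched input, which were not analysed here. No symbol or description in the table matched OsNAT10, so its own RNA was not analysed here.

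Depth was 13770857 to 14857980 reads over genes in the osnat10 libraries and 13688629 to 15583776 in the WT libraries. The libraries held RNA of green and of root tissue. All 6 leaf markers were detected, with summed levels of 4285 to 4923 RPKM in osnat10 and 4121 to 9311 RPKM in WT. Among them LIR1 was lower in osnat10 without overlap, at 306, 406 and 291 RPKM against 657, 1440 and 1317 RPKM in WT. Its log2 fold change was -1.70. The comparison deposited by the authors gives an adjusted p for 4 of the leaf markers and calls only LIR1. The other leaf markers overlapped between the genotypes. All 4 root markers were detected as well, with summed levels of 855 to 989 RPKM in osnat10 and 407 to 743 RPKM in WT, and the sums did not overlap between the genotypes. That difference came from RCc3, with 590 ± 69.2 RPKM in osnat10 and 224 ± 108 RPKM in WT, and from the less abundant RCc2, while LSI1 and LSI2 had log2 fold changes of -0.33 and -0.28 and overlapped (SD, n = 3 each). None of these markers was at 0 in any library. Of 50 genes listed as seed storage markers, 8 reached the level for testing. Summed levels over all 50 were 543 to 587 RPKM in osnat10 and 329 to 464 RPKM in WT. Most of that sum came from ESP2 and SIP34, which averaged 293 and 171 RPKM in osnat10 and 210 and 127 RPKM in WT. Nearly all listed genes with prolamin (Prol) symbols were at 0 RPKM in every library, so the sums say little on their RNA. WT replicate 1 stood apart from the other WT libraries in single leaf markers, with 1064 RPKM of the antenna gene CAB1R against 5.10 and 10.9 RPKM in WT replicates 2 and 3, and 337 to 428 RPKM in osnat10. WT libraries differed from each other more than osnat10 libraries did, with a median SD per gene of 0.18 in osnat10 against 0.36 in WT on the log2(RPKM + 0.5) scale. Because these are whole seedlings, a lower level can come from fewer cells of a type or from less RNA per cell, and the libraries cannot tell these apart.

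NAC transcripts were a small part of the RNA. NAC genes took 0.150% to 0.156% of the reads in osnat10 libraries and 0.140% to 0.208% in WT libraries. Their summed RPKM was 615, 590.2 and 599 in osnat10 replicates 1 to 3 and 559.6, 836 and 544 in WT replicates 1 to 3, so WT replicate 2 stood above the other libraries. At least 1 read was found for 80 to 83 of the NAC genes in each osnat10 library and for 80 to 84 in each WT library. Averaged over the 6 libraries, 8 genes were at 20 RPKM or more, 19 lay between 5 and 20, 29 between 1 and 5, and 35 below 1 RPKM, while 10 had no read in any library.

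ONAC036 was the most abundant NAC gene. It was at 157, 152 and 159 RPKM in osnat10 and at 140.2, 189.8 and 129 RPKM in WT, and alone it made up 25.5% to 26.5% of the summed NAC level in osnat10 and 22.7% to 25.1% in WT. The next most abundant genes were OsNAC6, a drought- and salt-responsive member also called SNAC2, ONAC037, OsNAC8, ONAC005, SNAC1, OsNTL5 and OMTN1. These 8 genes together gave 55.0% to 55.7% of the summed level in osnat10 and 59.0% to 63.6% in WT.

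**Figure D1:**
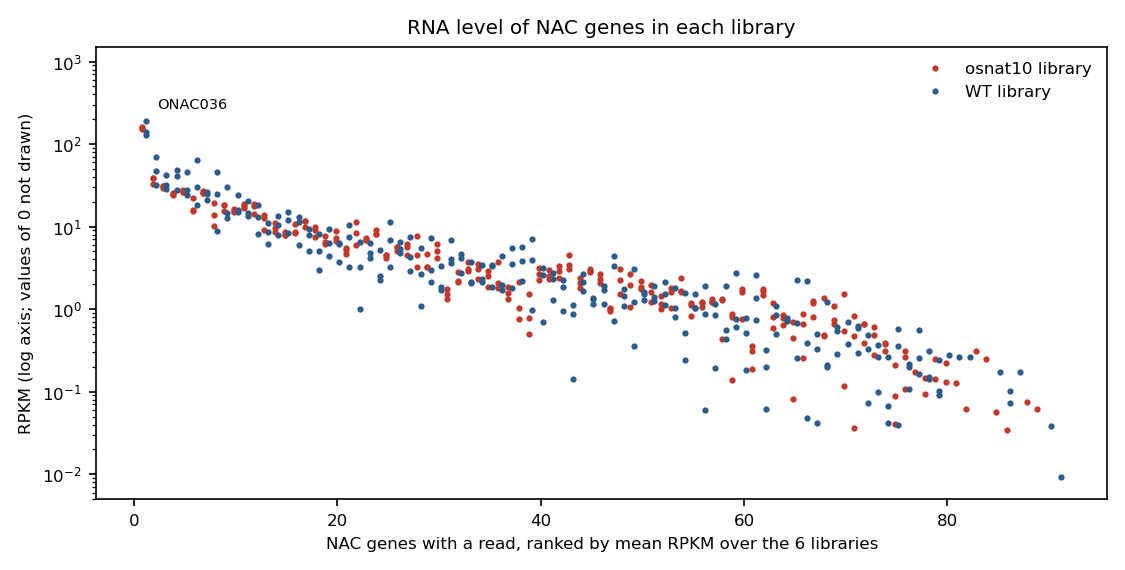
RPKM of each NAC gene with at least 1 read, ranked along the horizontal axis by its mean over the 6 libraries, on a log axis, with osnat10 libraries to the left of WT libraries at each gene. ONAC036 lies above all other NAC genes in each library, and most of the family lies under 5 RPKM.

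The comparison asked which NAC transcripts differ between osnat10 and WT, in a study whose title concerns RNA acetylation by this enzyme and photosynthesis. No NAC gene was called in limma, a linear model with a spread shared across genes, on log2(RPKM + 0.5) at an adjusted p under 0.05. The fit covered the 70 NAC genes that reached 0.5 RPKM in at least 3 libraries, and over all 24380 genes tested 0.152% were called. Single WT libraries moved that count. Without WT replicate 1 limma called 13 NAC genes, 6 higher and 7 lower in osnat10, or 18.6% of those tested, against 11.1% of all genes. Without WT replicate 3 it called 4 NAC genes, or 5.71%, against 4.04% of all genes, and leaving out any other single library gave 0. With weights that count each library by its agreement with the model it called 5 NAC genes, or 7.14%, against 5.55% of all genes. At an unadjusted p under 0.05 there were 16 NAC genes, 10 higher and 6 lower in osnat10, which is 22.9% of those tested against 19.2% of all genes tested. Higher genes made up 13.6% and lower genes 5.69% of all genes at that level. The log2 fold change was above 0 in 39 NAC genes, or 55.7%, against 59.9% of all genes tested, and below 0 in 31, with a median of 0.06 beside 0.11 over all genes tested. That overall shift depended on the scaling, since median of ratios scaling gave a median of 0.01 over all genes and -0.02 over NAC genes. Quantile normalisation gave -0.03 over all genes and -0.09 over NAC genes.

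The authors' deposited table, which has the column names of DESeq2, gives an adjusted p for 75 NAC genes. It places 8 of them under 0.05, or 10.7%, against 6.2% of all genes with an adjusted p in it. Higher in osnat10 in the authors' deposited table were ONAC118, ONAC051, ONAC029 and OsSND2, and lower were NAC95, NAC22, ONAC030 and ONAC014. Those are 5.33% of NAC genes in each direction, beside 2.42% of all genes higher and 3.79% lower in the same table.

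Of the tested NAC genes, 15 had all 3 osnat10 values above all 3 WT values, or 21.4%, against 17.2% of all genes tested. Another 4, or 5.71%, had all osnat10 values below the WT values, against 7.79% of all genes tested. Both shares are near the background.

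**Figure D2:**
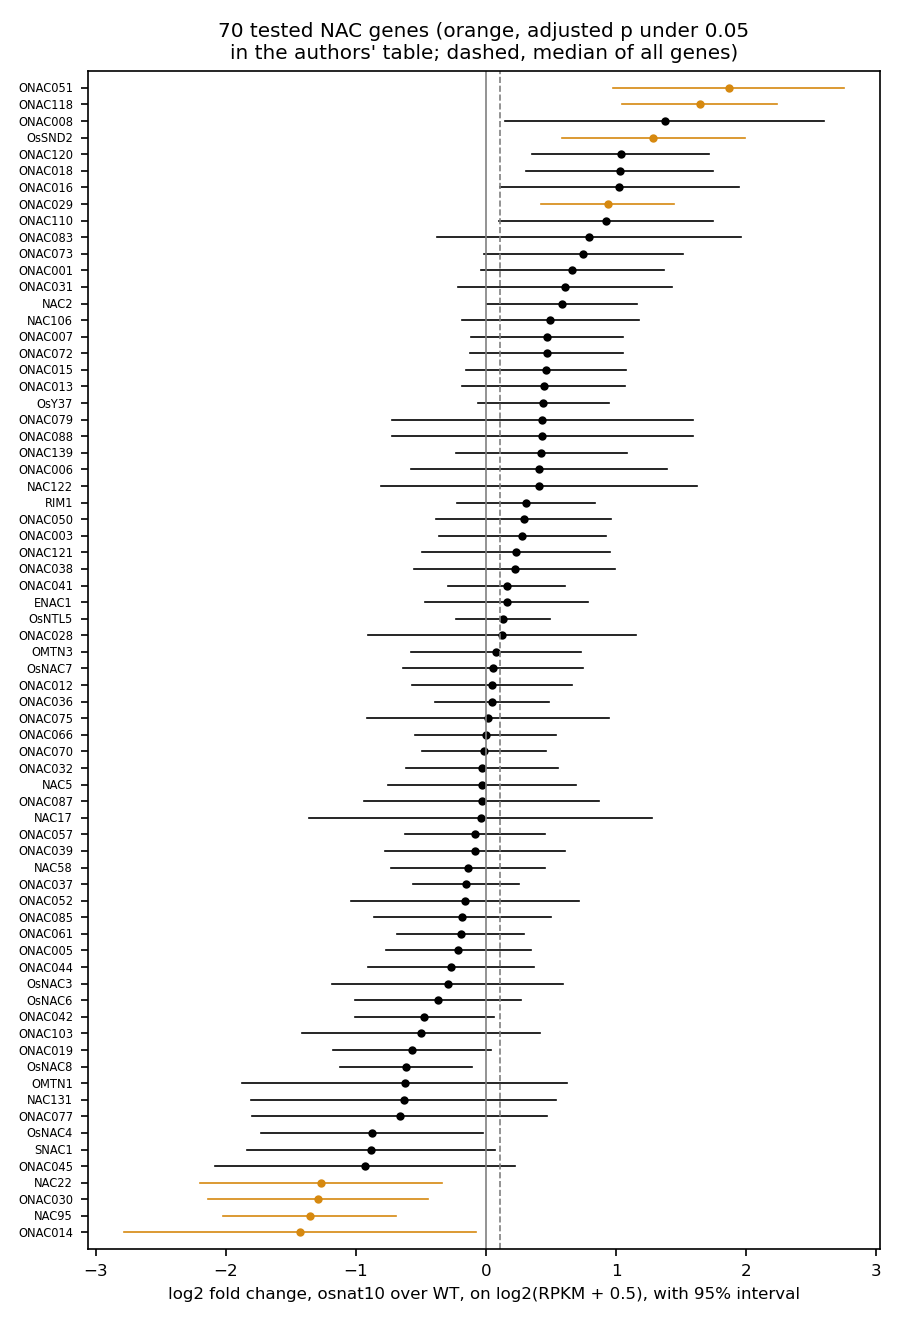
Log2 fold change of osnat10 over WT on the log2(RPKM + 0.5) scale, with its 95% interval from limma, for the 70 tested NAC genes in order of size. The dashed line marks the median of all genes, 0.11, and orange marks the 8 genes with an adjusted p under 0.05 in the authors' deposited table.

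ONAC118, for which no role is given in the table, had the smallest p of the family. Its level was 1.78, 1.65 and 1.50 RPKM in osnat10, backed by 54, 52 and 49 reads, against 0.197, 0.0611 and 0.319 RPKM in WT, backed by 6, 2 and 11 reads. Every osnat10 library lay well above every WT library. The mean was 1.64 ± 0.138 RPKM in osnat10 and 0.193 ± 0.129 RPKM in WT (SD, n = 3 each), 8.52-fold higher in osnat10. In limma the log2 fold change was 1.64 (SE 0.26, adjusted p = 0.057), and the authors' deposited table gives 2.98 (adjusted p = 0.00012). The pseudocount of 0.5 exceeds the WT level, and with a pseudocount of 0.1 the limma value was 2.68. Limma called the gene without WT replicate 1 (adjusted p = 0.018), without WT replicate 3 (adjusted p = 0.026) and with sample weights (adjusted p = 0.022). Over all alternatives its adjusted p ran from 0.018 to 0.320.

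ONAC051 is described in the table as a conserved hypothetical protein and was a member by its symbol. It was at 3.05, 3.41 and 4.49 RPKM in osnat10 and at 0.142, 1.12 and 0.877 RPKM in WT. The groups did not overlap, and WT replicate 1 was the lowest library with 2 reads. The log2 fold change was 1.87 in limma (SE 0.38, adjusted p = 0.088). Limma called it without WT replicate 1 (adjusted p = 0.020) and with sample weights (adjusted p = 0.032), and over all alternatives its adjusted p ran from 0.020 to 0.381.

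ONAC029 and OsSND2 belong to the members that act in secondary walls. OsSND2 is annotated as a positive regulator of cellulose synthesis, and ONAC029 is a rice relative of the Arabidopsis switches of secondary wall formation. OsSND2 was at 9.00, 8.06 and 8.17 RPKM in osnat10 and at 2.53, 2.29 and 5.25 RPKM in WT, 2.51-fold higher in the mean. ONAC029 was at 2.82, 2.86 and 3.03 RPKM in osnat10 and at 1.15, 1.33 and 1.36 RPKM in WT, 2.27-fold higher in the mean. Neither gene overlapped between the genotypes, and ONAC029 varied little within either, with an SD of 0.111 RPKM in osnat10 and 0.116 RPKM in WT (n = 3 each). The limma log2 fold changes were 1.29 for OsSND2 (SE 0.30) and 0.94 for ONAC029 (SE 0.22), with an adjusted p = 0.104 for each. Without WT replicate 3 limma called OsSND2 (adjusted p = 0.015, range over alternatives 0.015 to 0.391), as it did with sample weights (adjusted p = 0.044). No alternative called ONAC029, whose adjusted p ran from 0.0504 to 0.394.

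**Figure D3:**
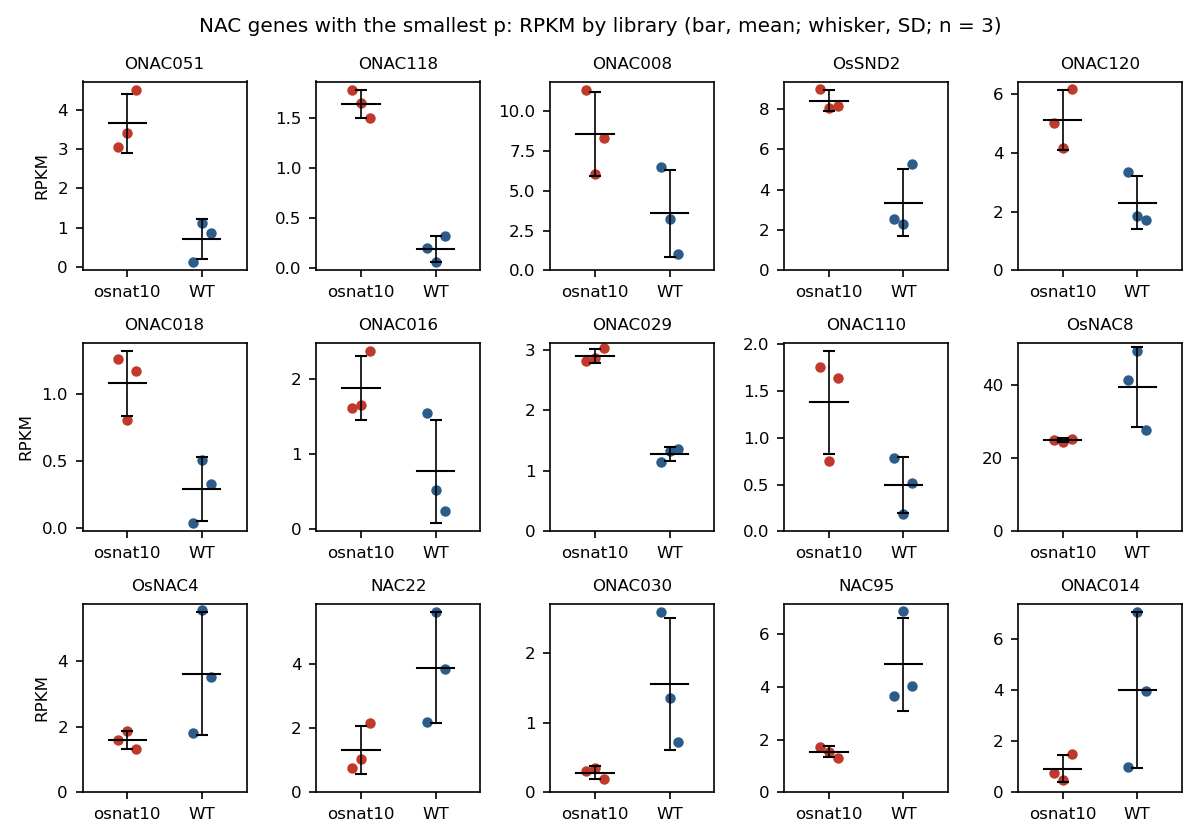
RPKM by library for the 15 NAC genes with the smallest limma p, osnat10 left of WT, with the mean and SD of 3 libraries. ONAC118, ONAC051, ONAC029, OsSND2, ONAC120, ONAC018 and ONAC016 lie higher in osnat10 without overlap. NAC95, NAC22, ONAC030 and OsNAC8 lie lower without overlap, and the other genes overlap.

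Among the lower genes, NAC95 and NAC22 are annotated for drought tolerance, NAC95 together with cold and NAC22 together with salt and abscisic acid. NAC95 was at 1.74, 1.54 and 1.32 RPKM in osnat10 and at 3.66, 6.89 and 4.04 RPKM in WT. Its log2 fold change was -1.36 in limma (SE 0.29, adjusted p = 0.092) and is -1.76 in the authors' deposited table (adjusted p = 0.000297). Without WT replicate 1 limma called NAC95 (adjusted p = 0.023, range over alternatives 0.023 to 0.387), as it did with sample weights (adjusted p = 0.030). NAC22 was at 0.756, 1.03 and 2.15 RPKM in osnat10 and at 2.17, 5.61 and 3.85 RPKM in WT, and osnat10 replicate 3 nearly reached WT replicate 1. Its log2 fold change was -1.27 in limma (SE 0.40, adjusted p = 0.159), and without WT replicate 1 limma called it (adjusted p = 0.0445, range over alternatives 0.0445 to 0.423).

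ONAC030 and ONAC014 have no role given in the table. ONAC030 was at 0.315, 0.358 and 0.186 RPKM in osnat10, from 7 to 13 reads, and at 2.60, 1.35 and 0.732 RPKM in WT, from 29 to 91 reads (limma log2 fold change -1.29, SE 0.36, adjusted p = 0.132). ONAC014 was at 0.772, 0.495 and 1.52 RPKM in osnat10 and at 0.984, 7.05 and 3.97 RPKM in WT. Its groups overlapped, because WT replicate 1 lay among the osnat10 libraries (limma adjusted p = 0.238). Limma called ONAC030 without WT replicate 3 (adjusted p = 0.0499, range over alternatives 0.0499 to 0.426) and ONAC014 without WT replicate 1 (adjusted p = 0.023, range over alternatives 0.023 to 0.485).

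Of the other genes among the 15 with the smallest p, none is called in the authors' deposited table. ONAC120, similar to NAM and CUC2 proteins, averaged 5.11 ± 1.02 RPKM in osnat10 and 2.29 ± 0.901 RPKM in WT (SD, n = 3 each, limma adjusted p = 0.133). ONAC018, similar to the wheat protein GRAB2, averaged 1.08 ± 0.240 RPKM in osnat10 and 0.294 ± 0.235 RPKM in WT (limma adjusted p = 0.146). ONAC016 averaged 1.88 ± 0.429 RPKM in osnat10 and 0.769 ± 0.688 RPKM in WT. Those genes did not overlap between the genotypes, with osnat10 higher in each. ONAC008, also similar to NAM and CUC2 proteins, ranged from 6.04 to 11.3 RPKM in osnat10 and from 1.01 to 6.49 RPKM in WT, with overlap. ONAC110 overlapped too and rested on 4 to 9 reads in osnat10 and 1 to 4 reads in WT. OsNAC4, of the stress group, was at 1.59, 1.87 and 1.31 RPKM in osnat10 and at 1.80, 5.52 and 3.50 RPKM in WT. With sample weights limma called ONAC120 (adjusted p = 0.046). Without WT replicate 1 it called 4 of these genes. Their adjusted p was then 0.023 for ONAC120, 0.029 for ONAC016, 0.040 for ONAC008 and 0.038 for OsNAC4, the lowest over all alternatives for each, and the highest was 0.447 for ONAC120, 0.538 for ONAC016, 0.498 for ONAC008 and 0.561 for OsNAC4.

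OsNAC8, also listed as OsNTL3, is a member that is tethered to membranes and was among the abundant ones. Its level was 24.9, 24.3 and 25.3 RPKM in osnat10 and 41.3, 49.1 and 27.7 RPKM in WT. All osnat10 libraries lay below all WT libraries, though WT replicate 3 came close to them (limma log2 fold change -0.61, SE 0.22, adjusted p = 0.194). Without WT replicate 3 limma called OsNAC8 (adjusted p = 0.039, range over alternatives 0.039 to 0.476). OsNTL5, the other membrane-bound member and annotated as a repressor of flowering, averaged 26.3 ± 0.878 RPKM in osnat10 and 24.1 ± 2.85 RPKM in WT. The 95% interval of its log2 difference ran from -0.23 to 0.49.

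The stress group held 12 members, all tested, of which 3 had a log2 fold change above 0 and 9 below, with a median of -0.33 beside 0.11 over all genes. Limma called 0 of them, and 3 had an unadjusted p under 0.05, all lower in osnat10, where 5.69% of all genes tested were lower. NAC95 and NAC22 are the members called in the authors' deposited table, both lower, against 3.79% of all genes lower in it. The summed level of the 12 members was 88.7, 97.7 and 86.9 RPKM in osnat10 replicates 1 to 3. It was 99.7, 204 and 104 RPKM in WT replicates 1 to 3. WT replicate 2 was thus high for the group, and it was the highest WT library in 10 of the 12 members. Without that library 6 members had a log2 fold change above 0 and 6 below, with a median of -0.04 and 0 calls. Without WT replicate 1, in contrast, limma called 5 members, in a fit that called 11.1% of all genes, and the median was -0.55. Median of ratios scaling left 3 members above 0 and 9 below, and quantile normalisation 2 above and 10 below.

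SNAC1, which acts in guard cells under drought, was at 16.0, 22.0 and 15.5 RPKM in osnat10 and at 18.2, 63.9 and 30.5 RPKM in WT. The groups overlapped (limma log2 fold change -0.88, SE 0.41, adjusted p = 0.288). The log2 fold change was -0.41 without WT replicate 2 (adjusted p = 0.517) and -1.30 without WT replicate 1 (adjusted p = 0.0493), the only alternative under the threshold. OsNAC6 was at 38.8, 38.4 and 32.4 RPKM in osnat10 and at 47.5, 69.9 and 31.8 RPKM in WT. NAC5, listed as OsNAC5 as well, was at 15.4, 18.2 and 18.4 RPKM in osnat10 and at 12.6, 29.9 and 14.5 RPKM in WT. OsNAC3 was at 4.69, 5.25 and 5.55 RPKM in osnat10 and at 3.24, 10.6 and 7.53 RPKM in WT. For OsNAC6, NAC5 and OsNAC3 all osnat10 values lay inside the WT range.

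ONAC045, named in drought and salt tolerance, was steady in osnat10 at 1.01, 1.04 and 0.939 RPKM and spread from 0.719 to 4.41 RPKM in WT. Without WT replicate 1 limma called ONAC045 (log2 fold change -1.54, adjusted p = 0.014). Against this pattern, ONAC003 and NAC122 were highest in WT replicate 1, at 3.72 and 3.04 RPKM. ONAC066 hardly varied, at 0.752 ± 0.106 RPKM in osnat10 and 0.751 ± 0.0311 RPKM in WT (SD, n = 3 each), and its 95% interval for the log2 difference ran from -0.54 to 0.54. ENAC1, annotated as an early and transient stress regulator, averaged 2.99 ± 0.636 RPKM in osnat10 and 2.64 ± 0.706 RPKM in WT.

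**Figure D4:**
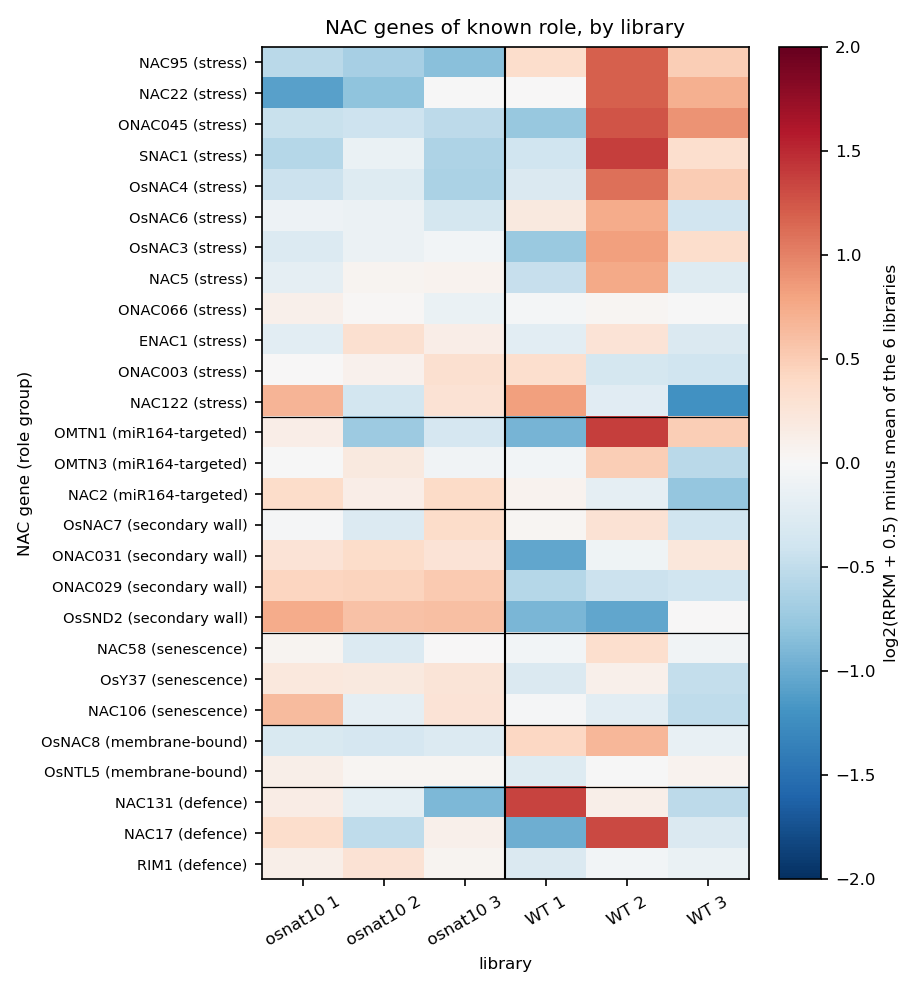
Log2(RPKM + 0.5) minus the gene's mean over the 6 libraries, for the 27 tested NAC genes of known role, with genes down the page by role group and libraries across, osnat10 left of WT. Most rows of the stress group are red in WT replicate 2, and 3 of the 4 secondary wall rows are red in the osnat10 libraries.

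The secondary wall group held 4 members, all with a log2 fold change above 0, as had 59.9% of all genes tested, and a median of 0.77. Like the other role groups, it was chosen with earlier results of these data known, so these values are a description only. The group follows symbols and descriptions and may not hold every NAC gene of this role. Limma called 0 of these members. The authors' deposited table calls OsSND2 and ONAC029 higher, against 2.42% of all genes higher in it. OsNAC7 turned below 0 under both other scalings, which left 3 of the 4 members above 0 with a median of 0.70 for median of ratios scaling and 0.58 for quantile normalisation. ONAC031, another relative of the secondary wall switches, was at 1.22, 1.33 and 1.23 RPKM in osnat10 and at 0.193, 0.838 and 1.17 RPKM in WT. Its groups did not overlap, though WT replicate 3 lay close to osnat10 replicates 1 and 3. OsNAC7, similar to a vessel regulator of Arabidopsis, averaged 0.867 ± 0.308 RPKM in osnat10 and 0.819 ± 0.302 RPKM in WT. The 95% interval of its log2 difference ran from -0.64 to 0.75.

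Genes of secondary wall synthesis, on which such NAC proteins act, were also followed, in a list that was likewise chosen with earlier results known. Of 9 listed genes 8 were tested, and all 8 had a log2 fold change above 0, against 59.9% of all genes tested, with a median of 0.68. Median of ratios scaling left all 8 above 0, and quantile normalisation 7. Limma called 0 of them. It called 4 without WT replicate 1, where 11.1% of all genes were called, and 2 without WT replicate 3, where 4.04% were. The authors' deposited table has 3 of the 9 higher and 0 lower, against 2.42% of all genes higher in it. BC1, a COBRA-like protein that shapes cellulose, averaged 12.9 ± 1.24 RPKM in osnat10 and 4.95 ± 0.906 RPKM in WT (SD, n = 3 each, limma adjusted p = 0.057). The cellulose synthase gene OsCesA4 averaged 54.0 ± 2.34 RPKM in osnat10 and 27.2 ± 6.18 RPKM in WT. The cellulose synthase gene CESA7 averaged 5.21 ± 0.513 RPKM in osnat10 and 2.07 ± 0.599 RPKM in WT. OsMYB46, a regulator directly below these NAC proteins, was under the level needed for testing, at 0.404 to 0.614 RPKM in osnat10 and 0.111 to 0.582 RPKM in WT. The summed root markers, at 855 to 989 RPKM in osnat10 and 407 to 743 RPKM in WT, moved with the genotype as well. Of the 4 markers, RCc3 and RCc2 are higher in the authors' deposited table, whereas LSI1 and LSI2 were lower in the mean in osnat10 and are not called there. Their part in the values of wall genes was not tested.

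Of the 5 members placed in the group of miR164 targets, 3 were tested, and the group may not hold every target. OMTN1 was at 19.1, 10.3 and 13.7 RPKM in osnat10 and at 8.87, 46.3 and 24.6 RPKM in WT, so the WT libraries enclosed those of osnat10. NAC2, which shapes plant height and flowering, was at 11.6, 9.77 and 11.8 RPKM in osnat10 and at 9.38, 7.80 and 5.03 RPKM in WT, without overlap (limma log2 fold change 0.58, SE 0.25, adjusted p = 0.257). OMTN3, a negative regulator of drought tolerance, averaged 6.82 ± 0.717 RPKM in osnat10 and 6.72 ± 2.56 RPKM in WT. OMTN6 had 16, 17 and 14 reads in osnat10 and 11, 3 and 2 reads in WT and was under the level needed for testing, as was OMTN5 with at most 6 reads in any library.

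No senescence regulator was called by limma. NAC58, also known as OsNAP and a promoter of leaf senescence, averaged 1.04 ± 0.189 RPKM in osnat10 and 1.20 ± 0.283 RPKM in WT, with a 95% interval of -0.73 to 0.45 for the log2 difference. NAC106, which delays senescence, averaged 2.27 ± 0.761 RPKM in osnat10 and 1.43 ± 0.325 RPKM in WT. OsY37, which promotes heading and senescence, was at 6.94, 6.90 and 7.19 RPKM in osnat10 and at 4.77, 6.40 and 4.15 RPKM in WT, without overlap (limma log2 fold change 0.44, SE 0.22, adjusted p = 0.311). Limma called 0 of the 10 tested chlorophyll breakdown genes out of 13 listed. Their median log2 fold change was 0.20. It was 0.51 without WT replicate 1, with 2 calls where 11.1% of all genes were called, -0.07 without WT replicate 2 and 0.12 without WT replicate 3, the last 2 with 0 calls. The authors' deposited table has 1 of these genes higher, OsRCCR2.

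The 3 members with a role in defence were tested and overlapped or lay close. RIM1, a jasmonate regulator linked to rice dwarf virus, averaged 1.94 ± 0.204 RPKM in osnat10 and 1.47 ± 0.159 RPKM in WT, with osnat10 higher in each library. NAC131 ran from 0.0811 to 0.697 RPKM in osnat10 and from 0.256 to 2.26 RPKM in WT. NAC17, responsive to rice blast, was at 0.873, 0.257 and 0.655 RPKM in osnat10 and at 0.0484, 2.19 and 0.385 RPKM in WT. All 5 endosperm members were near 0, with at most 4 reads in any library.

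The most abundant members were not called. The log2 difference of ONAC036 had a 95% interval of -0.39 to 0.49, that of ONAC037 one of -0.56 to 0.26 and that of ONAC005 one of -0.77 to 0.35. ONAC005 was at 27.4, 26.4 and 26.6 RPKM in osnat10 and at 24.0, 45.5 and 27.5 RPKM in WT, where again WT replicate 2 stood apart.

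WT libraries spread more than osnat10 libraries within the family. The range over 3 libraries had a median of 0.37 in osnat10 and 0.90 in WT over the tested NAC genes, on the log2(RPKM + 0.5) scale, against 0.34 in osnat10 and 0.70 in WT over all genes tested. WT spanned the wider range in 65 of 70 NAC genes, or 92.9%, and in 77.8% of all genes. WT replicate 2 was the highest WT library for 43 NAC genes, or 61.4%, against 41.8% of all genes tested. WT replicate 1 was the highest for 17 NAC genes, or 24.3%, against 23.9% of all genes tested. WT replicate 3 was the highest for 10 NAC genes, or 14.3%, against 34.3% of all genes tested. The widest WT ranges were those of ONAC014, OMTN1, NAC17, ONAC008 and ONAC088. ONAC088 ran from 1.08 to 1.23 RPKM in osnat10 and from 0.0593 to 1.93 RPKM in WT.

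Neighbouring NAC genes did not always share a level. Locus identifiers follow each other directly in 5 runs of 2 to 4 NAC genes. On chromosome 10, ONAC118 had 49 to 54 reads in osnat10 libraries, while its neighbour ONAC148 had 0 or 1 read in osnat10 libraries and 0 to 3 reads in WT libraries, and ONAC119 had none. On chromosome 11, ONAC045 was highest in WT replicate 2, while NAC122, separated from it only by ONAC123, was highest in WT replicate 1. The run of ONAC025, ONAC127, ONAC128 and ONAC129 on chromosome 11 had at most 4 reads in any library. NAC131 and ONAC077 adjoin on chromosome 12 and were highest in WT replicates 1 and 2. Reads of such close copies may not be assigned with certainty.

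Among other genes that NAC proteins are known to act on, LEA and dehydrin genes, which protect cells in drying tissue, had a median log2 fold change of 0.63 over 16 tested of 29 listed. Limma called 0, and 0 of the 20 with an adjusted p are called in the authors' deposited table. The median was 0.92 with 2 calls without WT replicate 1 and 0.31 with 1 call without WT replicate 3, in fits that called 11.1% and 4.04% of all genes. Their median log2(RPKM + 0.5) was 2.18, 1.53 and 3.20 in osnat10 and 1.88, 1.41 and 1.29 in WT. Among the WT libraries that median was highest in WT replicate 1, and any link to the level of stress NAC genes was not tested. Single members went either way. In WT replicates 1 to 3, LIP9 was at 53.7, 98.3 and 33.7 RPKM and LEA8 at 67.2, 98.0 and 60.2 RPKM. OsLEA9 was at 134, 21.6 and 10.6 RPKM in the same libraries. Type 2C phosphatases were listed by OsPP2C symbols. Some of them block abscisic acid signalling, and the list was not split by that role. They had a median log2 fold change of 0.02 over 59 tested genes of 73 listed. The median was -0.08 where libraries were scaled by median of ratios and -0.10 with quantile normalisation. Limma called 0 of them, 8 without WT replicate 1 and 1 without WT replicate 3, against 11.1% and 4.04% of all genes in those fits. The authors' deposited table has 7 of 65 lower and 0 higher, against 3.79% of all genes lower in it. Those 7 are OsPP2C01, OsPP2C05, OsPP2C07, OsPP2C19, OsPP2C32, OsPP2C34 and OsPP2C61. OsPP2C06, which also carries the symbol OsABI2, is not among them and had a limma log2 fold change of 0.16.

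Nicotianamine and phytosiderophore genes make metal chelators, and OsNAC6 is known to act on the nicotianamine synthases. Of these 8 genes 7 had a log2 fold change above 0, and 5 under each other scaling, against 59.9% of all genes tested in the first case. Limma called 0, and 2 without WT replicate 1, where 11.1% of all genes were called. The authors' deposited table has 2 of the 8 higher, against 2.42% of all genes. OsNAS1 averaged 880 ± 182 RPKM in osnat10 and 449 ± 68.8 RPKM in WT, and NAS2 492 ± 99.6 RPKM in osnat10 and 263 ± 42.6 RPKM in WT (SD, n = 3 each, limma adjusted p = 0.117 for each). Of 4 KNOX genes, which keep meristems active beside NAM and CUC boundary genes, 2 were tested, of which limma called 0, and 1 without WT replicate 1. OSH15 was at 2.35, 2.60 and 2.23 RPKM in osnat10 and at 1.85, 0.394 and 0.477 RPKM in WT, without overlap (limma adjusted p = 0.171).

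APX8, the peroxidase gene that is no NAC gene, was at 208, 226 and 182 RPKM in osnat10 and at 475, 472 and 329 RPKM in WT. Its groups did not overlap (limma log2 fold change -1.03, SE 0.22, adjusted p = 0.090). The authors' deposited table calls it lower in osnat10 (log2 fold change -1.17, adjusted p = 0.000457).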

How the data were processed

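RNA-seq values of 3 osnat10 and 3 WT seedling libraries were used, read as single-end reads of 150 bp per the labels' protocols. The authors deposited RPKM (reads relative to gene length and sequencing depth) for 38978 genes. The submitters' processing notes name STAR 2.5.3a, deepTools, DESeq2 and the build IRGSP-1.0, without role or order. With the read counter, annotation release and use of strand not given in the sources used here, reads of overlapping genes and near-identical copies are uncertain. A second deposited table holds the authors' comparison for 32190 genes: a mean normalised signal over libraries, a log2 fold change, a p-value with its adjusted p-value, and a Wald score. The log2 fold change deposited by the authors is positive for higher levels in osnat10, and its sign matched the RPKM means in each of the 1681 genes that it calls at 0.05. The deposited Wald score has the opposite sign and was not used.

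Values were analysed as log2(RPKM + 0.5) with limma 3.58.1 (R 4.3.3, empirical Bayes with an intensity trend), on genes at 0.5 RPKM or more in at least 3 libraries, with no covariate and Benjamini-Hochberg adjustment over all 24380 genes. This scale understates the fold change of weakly expressed genes. The fit and the read recovery were tested on simulated data. Whole reads were recovered from the RPKM steps and the authors' mean signal, within 0.05 reads for 99.98% of values above 0. Read counts cover counting error only, and with no read a library allows up to 3 reads. Named genes are those under an adjusted p of 0.05 in either table, the 15 smallest limma p, the 8 most abundant, the 5 with the widest WT range, and members of a role group. Genes, lists and role groups were chosen with earlier results of these data known, and role groups follow symbols, descriptions and, for 11 members, RefSeq synonyms. Replicate numbers did not pair the libraries: deviations of same-numbered osnat10 and WT libraries correlated over genes at -0.06, -0.03 and 0.13. Promoter motifs, planned as a description, were not analysed here. Tables were handled with Python 3.11.15 and pandas 2.3.3, and plots drawn with matplotlib 3.10.9.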

Additional observations from a re-analysis of the deposited data

How the results depend on the processing

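The count of 0 called NAC genes held in limma with a pseudocount of 0.1 or 1, without a filter, with a filter at 1 RPKM, under median of ratios scaling, quantile normalisation and the replicate block, and with voom weights on recovered reads, an alternative chosen after seeing the data, with 13 to 17 NAC genes at an unadjusted p under 0.05. With sample weights 5 were called, namely ONAC118, ONAC051, NAC95, OsSND2 and ONAC120, of which 4 are among the 8 in the authors' deposited table. Leaving out single libraries gave 0 to 13 calls, with 13 without WT replicate 1 (6 higher and 7 lower), 4 without WT replicate 3 and 0 in the other 4 fits. ONAC118 was called in these 2 fits and with sample weights. Over all genes, 37 were called in the fit reported, 108 under median of ratios scaling (51 higher and 57 lower), 20 under the replicate block, 1352 with sample weights and 1681 in the authors' deposited table, and 8 to 2713 when single libraries were left out. After quantile normalisation 28 were higher and 24 lower, and with voom 15 and 18, against 30 and 7. In at least 1 alternative the direction turned in 24 of the 70 tested NAC genes, none of which was called in any of them. Those include 4 of the 24 genes named for their p, level, WT range or a call in the authors' deposited table, and 7 of the 16 other tested role group members, ENAC1, ONAC066, OsNAC7, OsNAC3, NAC122, NAC5 and OMTN3. ONAC036 had log2 fold changes of 0.047 as reported, -0.060 under median of ratios scaling, -0.062 with voom and -0.11 after quantile normalisation, and -0.065 to 0.21 when single libraries were left out. NAC17 had -0.040 as reported, 0.22 with a pseudocount of 0.1, 0.27 with voom and -0.54 to 0.61 when single libraries were left out. Leaving out single libraries gave -0.14 to 0.92 for ONAC088 and -0.40 to 0.060 for ONAC005. The cause of these changes was not tested. Low counts limit genes such as ONAC118 and ONAC051, with 2 reads in their lowest WT library.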

Other observations

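Some NAC genes were read only in single libraries, and others were read in every library at unequal levels. ONAC010 had 8 reads and ONAC055 had 6 reads in osnat10 replicate 1 and none in the other libraries, where up to 3 reads per library are allowed by a count of 0. ONAC129, a caryopsis gene, had 4 reads in WT replicate 1 and none elsewhere. NAC17 had 36, 11 and 29 reads in osnat10 and 2, 97 and 18 reads in WT. ONAC094, which was under the level needed for testing, had 30, 11 and 11 reads in osnat10 and 27, 5 and 5 reads in WT, so that it was highest in replicate 1 of each genotype.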
